A study of Mus musculus with 7 samples.

Results

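The genes described are 39 named genes of homologous recombination, the Fanconi anemia pathway, the DNA damage checkpoint and translesion synthesis, taken by symbol from a table of 24047 gene names. All 39 were found, and all 39 were among the 13768 genes that passed the filter on low counts. They fell into 10 genes of homologous recombination, 5 of break sensing, resection and unwinding, 10 of the Fanconi pathway, 7 checkpoint kinases and chromatin mediators, and 7 of translesion synthesis together with Polq.

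Gene expression was measured by RNA sequencing (poly-A selected) in 7 lines of mouse esophageal epithelial cells of mixed strain background, grown on plastic in the keratinocyte medium KSFM. There were 3 lines with the missense allele p53R172H and the treatment label 4NQO (mutant 1, 2 and 3), 2 p53 -/- lines with the same 4NQO label (null 1 and 3), and 2 wild-type lines with no treatment label (WT 1 and 2). 4NQO is 4-nitroquinoline 1-oxide, a carcinogen that forms bulky adducts on purines. Genotype and the 4NQO label therefore cannot be told apart in either comparison with WT, whereas mutant and null lines share the label. No label gives the dose, the age of the animals or whether lines of a group came from different animals. The p-values set the difference between groups against the spread between lines. They therefore cannot be read as tests over independent animals.

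Homologous recombination repairs a broken chromosome by copying an intact sister: the ends are resected and the exposed strand invades the partner duplex. The Fanconi core complex attaches ubiquitin to the FANCD2-FANCI pair at crosslinked DNA, and ATM and ATR signal damage through the kinases CHEK2 and CHEK1. Translesion polymerases copy past lesions that stop the replicative enzymes. Many of these genes are transcribed mainly in cycling cells, and p53, acting through p21, is known to repress a number of them.

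Total counts ran from 12751118 in WT 2 to 47000225 in mutant 1. Single genes of the set had between 44 counts (Rad54l, null 1) and 4055 counts (Trp53bp1, mutant 1) in a library. Expression is given as CPM, the count of a gene per 1000000 counts of its library after TMM scaling. Trp53 stood at 171.6, 249.6 and 253.9 CPM in mutant lines and 8.73 and 4.71 CPM in null lines, against 211.6 and 192.7 CPM in WT lines, so it was low in both null lines and at similar levels in the others. Cdkn1a, the p53 target that encodes p21, had 24.7 to 50 CPM in mutant lines and 98.9 and 56.2 CPM in null lines, against 573.9 and 335.9 CPM in WT lines. Squamous epithelial markers were found in every line, though Krt4 was at 0 CPM in mutant 2. They summed to 5808 to 9781 CPM in the 5 mutant and null lines, against 26938 and 37467 CPM in WT lines, mostly from Krt5 and Krt14. Krt5, Krt14 and Krt13 were below both WT lines in every mutant and null line. Epcam, Cdh1 and Krt4 were below both WT lines in every mutant line, but not in every null line. For Trp63 this held in every line of neither group. Trp63 had 299.2, 295.6 and 440.5 CPM in mutant lines and 304.9 and 168.1 CPM in null lines, against 280.8 and 411.6 CPM in WT lines. Fibroblast markers were not alike within groups: 8 genes summed to 567.0, 9.73 and 375.9 CPM in mutant 1, 2 and 3, 8.03 and 419.6 CPM in null 1 and 3, and 5.61 and 8.20 CPM in WT 1 and 2. Of the leukocyte markers, 5 genes summed to 23.2 to 92.0 CPM, of which Cd68 made up 22.5 to 91.8 CPM, while Ptprc was at most 0.061 CPM and Cd3e was at 0 in every line. The 4 endothelial markers summed to at most 2.05 CPM, and the 4 muscle markers summed to between 29.0 CPM (null 1) and 770.8 CPM (mutant 1). Acta2 made up 28.3 CPM of the sum in null 1 and 768.4 CPM in mutant 1. Myh11 was at most 0.456 CPM and Actg2 at most 1.81 CPM in any line, and Des was highest in null 3, at 26.0 CPM.

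The first comparison asks how mutant lines differ from WT lines. Xrcc2, which acts in recombination, was the only gene of the 39 that passed the test, and it was higher in mutant lines. That is 2.56% of the set, against 7.42% of all genes tested (3.30% called higher and 4.13% lower). Of the 39 log2 fold changes, 18 were above 0 (54.4% of all genes) and 21 below (45.6% of all genes), and their median was -0.05, against 0.08 over all genes. The median was 0.38 without WT 2 and 0.12 with limma-voom. All 3 mutant lines lay above both WT lines for 12 of the 39 genes (26.9% of all genes) and below both for 7 (25.7% of all genes). These counts moved with single lines: 21 were above WT 1 with WT 2 left out (34.4% of all genes), 20 were below WT 2 with WT 1 left out (33.4% of all genes), and 12 were below both WT lines with mutant 1 left out (31.8% of all genes). At an unadjusted p under 0.05, 4 genes were higher (15.9% of all genes) and 1 was lower (14.6% of all genes). DESeq2 called 3 of the 39, Xrcc2 and Mad2l2 higher and Atr lower, where it called 23.2% of all genes (12.5% higher and 10.8% lower). limma-voom called none of the 39, where it called 5.40% of all genes (1.45% higher and 3.94% lower).

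The second comparison asks the same of null lines against WT lines. None of the 39 genes passed in edgeR, where 0.138% of all genes did (0.0726% higher and 0.0654% lower). None passed in limma-voom either, where 0% of all genes passed. DESeq2 called 4 lower, Fanci, Rad50, Brip1 and Rev1, where it called 11.3% of all genes (6.55% higher and 4.70% lower). The set was mostly lower: 32 of 39 log2 fold changes were below 0 (46.4% of all genes) and 7 above (53.6% of all genes), with a median of -0.62, against 0.06 over all genes. Both null lines lay below both WT lines for 21 of the 39 genes (27.1% of all genes) and above both for 5 (29.1% of all genes). With null 3 left out, null 1 alone was below both WT lines for 32 of 39 (39.3% of all genes). At an unadjusted p under 0.05, 8 were lower (9.01% of all genes) and 1, Mad2l2, was higher (11.2% of all genes). The shift was not limited to the 39. Of 22 proliferation genes outside the set, described below, 20 had log2 fold changes below 0 and 2 above, with a median of -0.99.

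The third comparison, mutant against null lines, sets a missense p53 beside its loss with the carcinogen label in common. None of the 39 genes passed in edgeR or limma-voom, where 0% of all genes passed in each. DESeq2 called Brca1 higher, where it called 4.39% of all genes (1.55% higher and 2.84% lower). Of the 39 log2 fold changes, 34 were above 0 (51.3% of all genes) and 5 below (48.7% of all genes), with a median of 0.48, against 0.02 over all genes. All 3 mutant lines lay above both null lines for 21 of the 39 genes (16.0% of all genes), and for none did they lie below (15.1% of all genes). At an unadjusted p under 0.05, 10 were higher (6.35% of all genes) and none was lower (7.63% of all genes). These 10 were Brca1, Bard1, Brip1, Rad51ap1, Rad54l, Xrcc2, Exo1, Fanci, Chek1 and Polh. The 22 proliferation genes shifted in the same direction and further. All 22 had log2 fold changes above 0, with a median of 1.19, and for 15 all mutant lines lay above both null lines. The comparisons with WT share the WT lines, and each comparison shares a group with the others, so their values are set side by side and not counted as separate evidence.

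**Figure D1:**
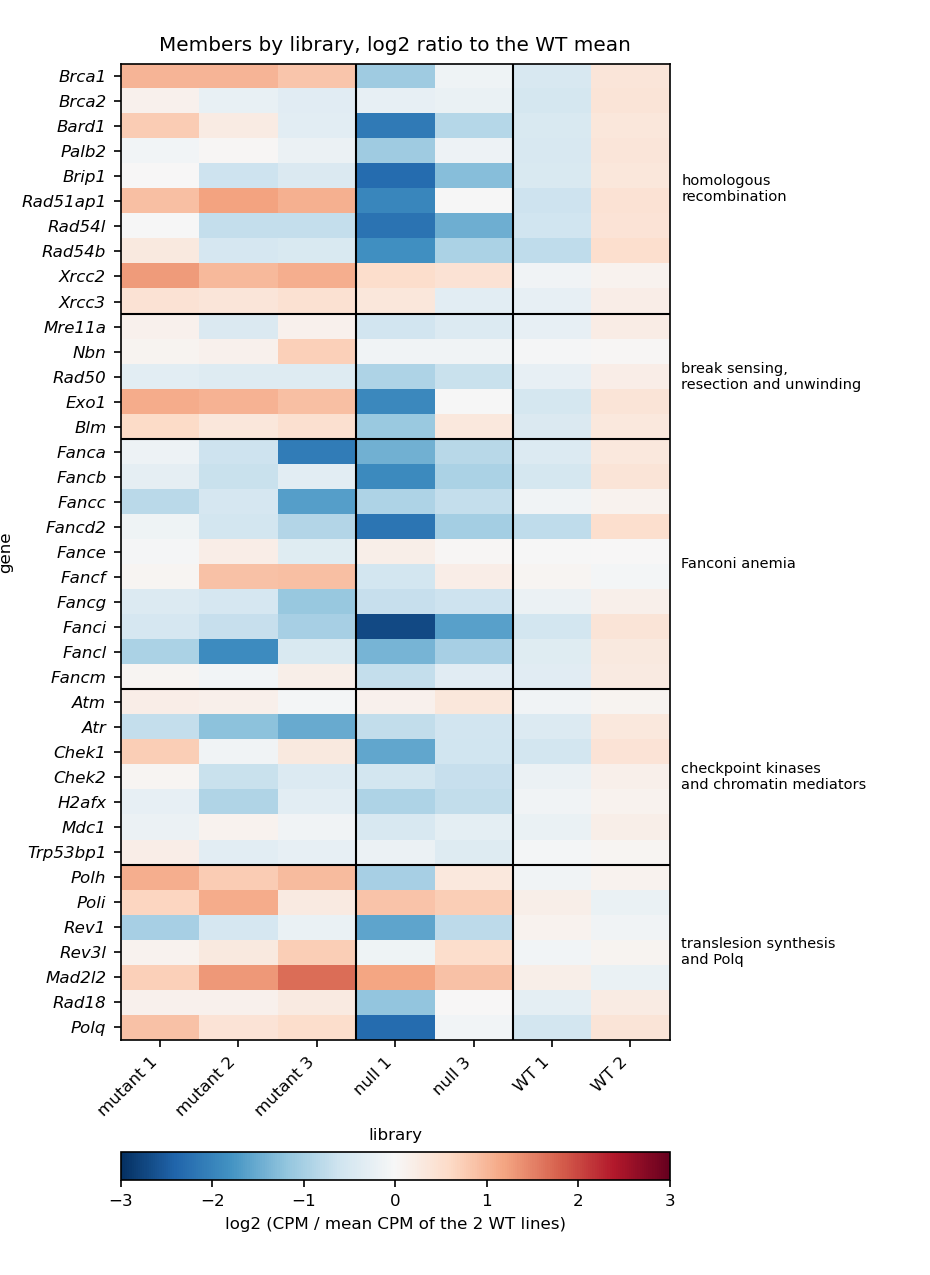
Log2 ratio of CPM to the mean of the WT lines for each of the 39 genes (rows, grouped by role) in each of the 7 libraries (columns: mutant, null, WT). Null 1 holds the lowest value of 25 of the 39 genes, and WT 2 holds the highest of 19. The shares over all genes were not computed.

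**Figure D2:**
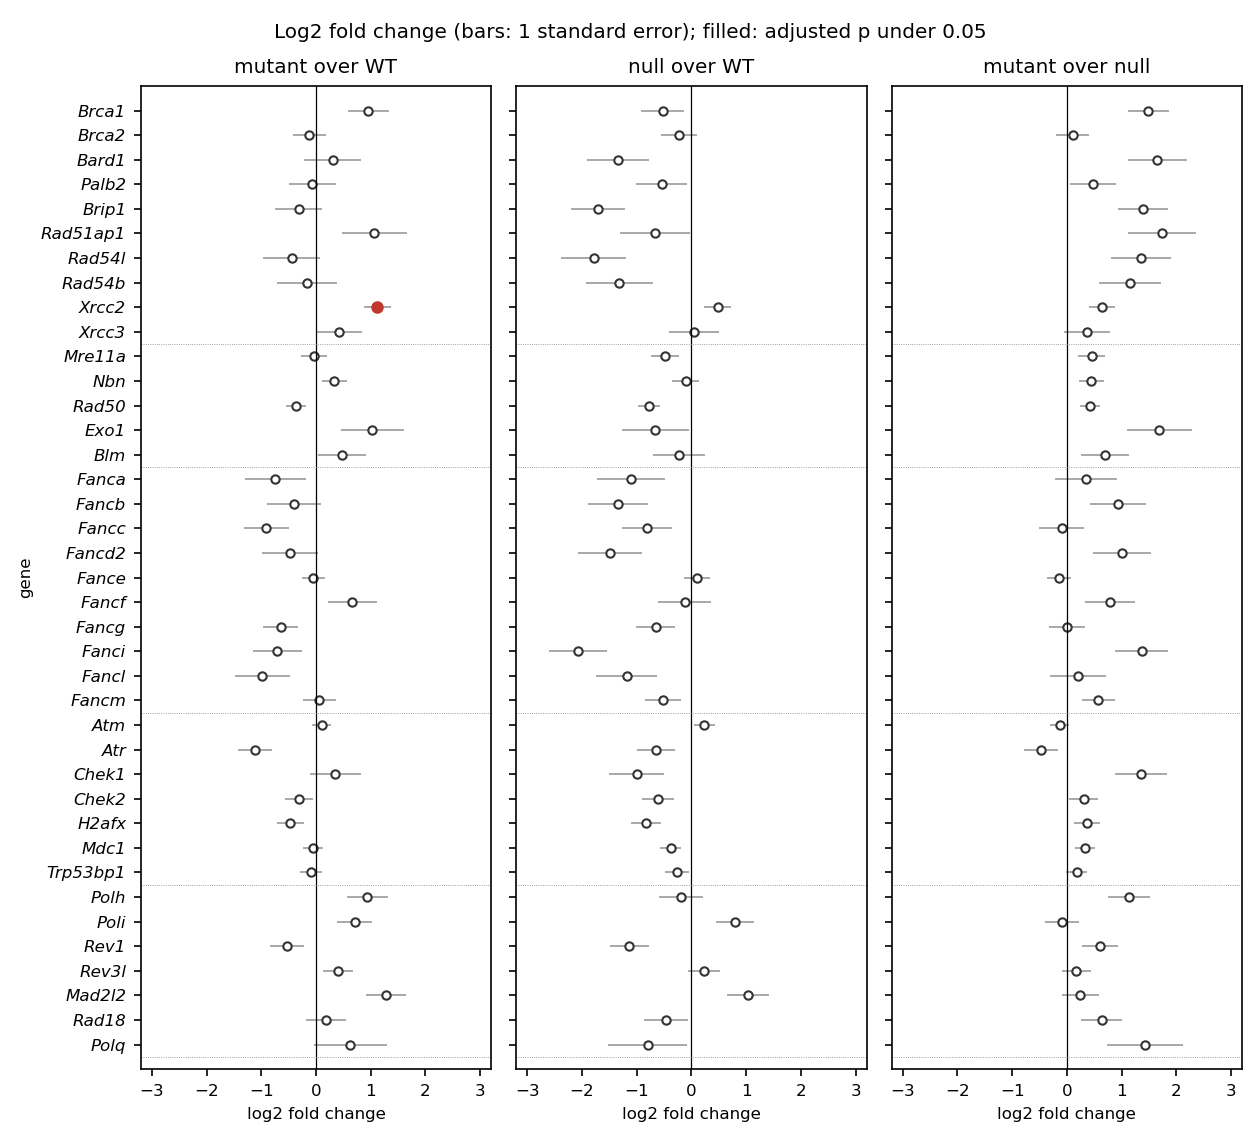
Log2 fold change of each of the 39 genes for mutant over WT, null over WT and mutant over null, with bars of 1 standard error from the edgeR fit. The filled point is Xrcc2 in mutant over WT, the only value with an adjusted p under 0.05.

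Among the recombination genes, Xrcc2 had 22.9, 18.5 and 20.2 CPM in mutant lines and 13.6 and 12.7 CPM in null lines, against 8.71 and 10.1 CPM in WT lines. The groups did not overlap: every mutant line was above every null line, and every null line above every WT line. The log2 fold change was 1.12 for mutant over WT (SE 0.239, adjusted p = 0.0433), 0.48 for null over WT (SE 0.254, adjusted p = 0.326) and 0.65 for mutant over null (SE 0.234, adjusted p = 0.317). The call needed each mutant and WT line: adjusted p was 0.195 without WT 1, 0.233 without WT 2, and 0.0608, 0.0923 and 0.115 without mutant 1, 2 and 3, with log2 fold changes of 1.02 to 1.24. It was also missed with limma-voom (adjusted p = 0.0561) and without a count filter (adjusted p = 0.0554). Means are given with their SD over 3 mutant, 2 null and 2 WT lines. Xrcc3, another recombination gene, averaged 4.98 ± 0.128 CPM in mutant lines and 3.86 ± 1.21 CPM in null lines, against 3.73 ± 0.806 CPM in WT lines.

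Brca1, which with BARD1 forms a ubiquitin ligase that promotes resection, had 38.5, 38.5 and 33.7 CPM in mutant lines and 9.13 and 17.3 CPM in null lines, against 13.5 and 24.5 CPM in WT lines. Mutant lines were close to each other and above all the null and WT lines, which overlapped. Brca1 had the smallest p of the set for mutant over null, with a log2 fold change of 1.48 (SE 0.376, unadjusted p = 0.00606, adjusted p = 0.275). For mutant over WT its log2 fold change was 0.96 (SE 0.368, adjusted p = 0.138). Its partner Bard1 had 22.9, 15.9 and 10.8 CPM in mutant lines and 3.07 and 7.44 CPM in null lines, against 9.80 and 17.0 CPM in WT lines. Mutant and WT lines overlapped for Bard1, and both null lines were below all the others (mutant over null 1.65, SE 0.542, adjusted p = 0.299).

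Rad51ap1, whose product stimulates strand invasion, had 19.4, 24.0 and 21.6 CPM in mutant lines and 2.68 and 10.3 CPM in null lines, against 6.80 and 14.0 CPM in WT lines. Every mutant line was above every other line, and the null lines were 3.86-fold apart. The log2 fold change was 1.74 for mutant over null (SE 0.616, adjusted p = 0.314) and 1.07 for mutant over WT (SE 0.599, adjusted p = 0.269). Brip1, a helicase that binds BRCA1, had 15.8, 10.3 and 11.6 CPM in mutant lines and 3.13 and 6.45 CPM in null lines, against 11.4 and 19.9 CPM in WT lines. Rad54l, a DNA motor protein of recombination, had 6.14, 3.75 and 3.76 CPM in mutant lines and 1.34 and 2.24 CPM in null lines, against 4.12 and 8.28 CPM in WT lines. For both genes the null lines were lowest and the mutant and WT lines overlapped; the log2 fold change for null over WT was -1.70 for Brip1 (SE 0.491, adjusted p = 0.153) and -1.79 for Rad54l (SE 0.591, adjusted p = 0.184).

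Rad54b, a relative of Rad54l, averaged 6.79 ± 2.28 CPM in mutant lines and 3.06 ± 1.31 CPM in null lines, against 7.66 ± 4.44 CPM in WT lines, again with both null lines lowest. In the GENCODE M21 gene models it shares 35.8% of its exon bases with Fsbp on the same strand, so its reads are uncertain. Brca2, a central recombination gene, and Palb2, which tethers BRCA2 to BRCA1, did not separate the groups. Brca2 averaged 27.7 ± 4.92 CPM in mutant lines and 25.8 ± 0.572 CPM in null lines, against 30.2 ± 13.0 CPM in WT lines, which stood at 21.1 and 39.4 CPM. Palb2 averaged 8.20 ± 0.641 CPM in mutant lines and 5.89 ± 2.57 CPM in null lines, against 8.60 ± 3.45 CPM in WT lines.

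**Figure D3:**
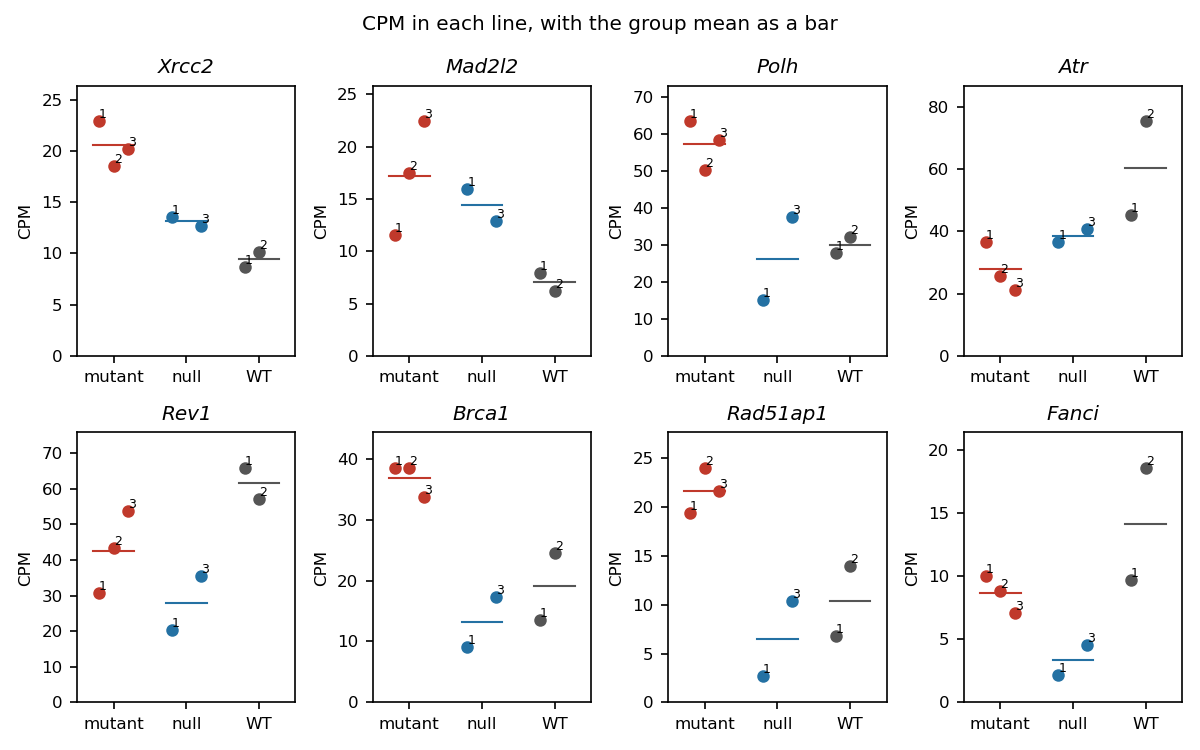
CPM of 8 genes in each line (points, numbered by replicate; bars: group means) in mutant, null and WT lines. Xrcc2 separates the 3 groups without overlap, Mad2l2 is higher and Atr and Rev1 lower in every mutant and null line than in both WT lines, and for Polh, Brca1 and Rad51ap1 the mutant lines lie above all others.

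MRE11, RAD50 and NBN form the complex that binds broken ends, and EXO1 and BLM extend resection. Rad50 had 71.7, 68.3 and 68.1 CPM in mutant lines and 47.4 and 56.6 CPM in null lines, against 75.5 and 103 CPM in WT lines. The groups did not overlap, with null lines lowest and WT lines highest, and the log2 fold change was -0.78 for null over WT (SE 0.200, adjusted p = 0.133) and -0.37 for mutant over WT (SE 0.180, adjusted p = 0.217). Mre11a, for MRE11, averaged 56.7 ± 11.6 CPM in mutant lines and 41.5 ± 3.02 CPM in null lines, against 58.2 ± 13.0 CPM in WT lines. Nbn averaged 49.8 ± 12.6 CPM in mutant lines and 36.7 ± 0.0737 CPM in null lines, against 39.5 ± 1.70 CPM in WT lines. Exo1 had 28.1, 27.1 and 24.6 CPM in mutant lines and 3.44 and 13.1 CPM in null lines, against 9.02 and 17.1 CPM in WT lines. Mutant lines were above all others for Exo1, and the null lines differed 3.80-fold from each other (mutant over null 1.69, SE 0.587, adjusted p = 0.308). Blm averaged 31.4 ± 2.49 CPM in mutant lines and 19.4 ± 12.6 CPM in null lines, against 22.6 ± 8.16 CPM in WT lines; null 1 was at 10.4 CPM and null 3 at 28.3 CPM.

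The Fanconi genes were the role group with the lowest median for mutant over WT, a log2 fold change of -0.56, and for null over WT, -0.95. In the GENCODE models Fanca, Fancc, Fancf, Fanci, Fancl and Fancm have at least 5% of their exon bases under exons on the opposite strand. Whether counting used strand is not given, so their counts are uncertain. Fanci, one of the pair that the core complex ubiquitinates, had 10.0, 8.83 and 7.11 CPM in mutant lines and 2.16 and 4.56 CPM in null lines, against 9.70 and 18.6 CPM in WT lines. Both null lines were below every mutant and WT line, while mutant 1 lay between the WT lines. Its log2 fold change of -2.07 for null over WT was the lowest of the set and had the smallest p there (SE 0.525, unadjusted p = 0.00603, adjusted p = 0.131). Its partner Fancd2 had 16.2, 12.1 and 9.57 CPM in mutant lines and 3.83 and 8.77 CPM in null lines, against 10.4 and 24.8 CPM in WT lines, and WT 2 stood above every other line (null over WT -1.48, SE 0.582, adjusted p = 0.228). Fancb, a core complex gene on the X chromosome, had 5.33, 4.01 and 5.12 CPM in mutant lines and 1.70 and 3.34 CPM in null lines, against 4.46 and 8.36 CPM in WT lines (null over WT -1.34, SE 0.553, adjusted p = 0.243). Here too the null lines were lowest and the mutant and WT lines overlapped.

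Fancc, Fancg and Fancl, core complex genes, were below both WT lines in every mutant and null line. Fancc averaged 6.24 ± 2.33 CPM in mutant lines and 6.66 ± 0.727 CPM in null lines, against 11.7 ± 1.27 CPM in WT lines. Fancg averaged 8.72 ± 2.22 CPM in mutant lines and 8.67 ± 0.252 CPM in null lines, against 13.7 ± 2.28 CPM in WT lines. Fancl, the ubiquitin ligase subunit, averaged 5.08 ± 2.31 CPM in mutant lines and 4.41 ± 0.854 CPM in null lines, against 10.0 ± 3.14 CPM in WT lines. None of the 3 passed the test (adjusted p = 0.186, 0.227 and 0.231 for mutant over WT). The mutant lines differed most among themselves in Fanca, a core subunit, with 22.7, 16.4 and 5.90 CPM, a range of 3.85-fold; null lines had 9.31 and 14.2 CPM, against 18.9 and 31.4 CPM in WT lines. Fance, Fancf and Fancm, the last of which anchors the complex on DNA, had log2 fold changes of -0.05, 0.66 and 0.06 for mutant over WT.

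Among checkpoint genes, Atr, the kinase of stalled forks, had 36.5, 25.7 and 21.1 CPM in mutant lines and 36.5 and 40.6 CPM in null lines, against 45.3 and 75.3 CPM in WT lines. Every mutant and null line was below both WT lines. The log2 fold change was -1.12 for mutant over WT (SE 0.306, adjusted p = 0.0700) and -0.65 for null over WT (SE 0.341, adjusted p = 0.325). Without mutant 1 the first was -1.38 with adjusted p = 0.0417. It was -1.08 without mutant 2 (adjusted p = 0.151) and -0.97 without mutant 3 (adjusted p = 0.163). Without WT 1 it was -1.43, and without WT 2 it was -0.71. DESeq2 called Atr lower (adjusted p = 0.0108), and limma-voom did not call it (adjusted p = 0.0964). Chek1, the kinase that ATR activates, had 21.2, 11.9 and 15.6 CPM in mutant lines and 4.32 and 8.35 CPM in null lines, against 8.61 and 16.8 CPM in WT lines. Mutant lines overlapped WT lines, and null lines were lowest (mutant over null 1.36, SE 0.477, adjusted p = 0.313).

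H2afx, the histone that ATM and ATR phosphorylate around breaks, had 37.5, 23.8 and 35.9 CPM in mutant lines and 23.5 and 26.8 CPM in null lines, against 41.5 and 48.1 CPM in WT lines. WT lines were above all others, with log2 fold changes of -0.83 for null over WT (SE 0.269, adjusted p = 0.181) and -0.47 for mutant over WT (SE 0.242, adjusted p = 0.236). Atm, the kinase of double-strand breaks, moved least of the 39 genes over the 7 lines: its highest line was 1.36-fold above its lowest. It averaged 38.8 ± 3.64 CPM in mutant lines and 42.6 ± 4.55 CPM in null lines, against 36.1 ± 3.37 CPM in WT lines. The chromatin mediators Trp53bp1 and Mdc1 had ranges of 1.5-fold and 1.57-fold, and Chek2, the kinase that ATM activates, had 1.80-fold.

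In translesion synthesis, Mad2l2, the small subunit of polymerase zeta, had 11.5, 17.5 and 22.4 CPM in mutant lines and 16.0 and 12.9 CPM in null lines, against 7.96 and 6.17 CPM in WT lines. All mutant and null lines were above both WT lines. The log2 fold change was 1.28 for mutant over WT (SE 0.361, adjusted p = 0.0752) and 1.03 for null over WT (SE 0.384, adjusted p = 0.214). Without mutant 1 the first was 1.48 with adjusted p = 0.0425. It was 1.24 without mutant 2 (adjusted p = 0.149) and 1.01 without mutant 3 (adjusted p = 0.180). Without WT 1 it was 1.48, and without WT 2 it was 1.11. DESeq2 called Mad2l2 higher (adjusted p = 0.0113), and limma-voom did not call it (adjusted p = 0.178). Polh, the polymerase that copies past ultraviolet dimers and a known p53 target in human cells, had 63.4, 50.4 and 58.2 CPM in mutant lines and 15.0 and 37.4 CPM in null lines, against 27.8 and 32.1 CPM in WT lines. Mutant lines were above all others, and the WT lines lay between the null lines. The log2 fold change was 0.94 for mutant over WT (SE 0.378, adjusted p = 0.152) and 1.13 for mutant over null (SE 0.380, adjusted p = 0.306). For mutant over WT it was called when only those groups were fitted (adjusted p = 0.0348), without null 1 (0.0407) and without null 3 (0.0383).

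Rev1, which inserts cytosine and serves as a scaffold for other polymerases, had 30.8, 43.3 and 53.8 CPM in mutant lines and 20.4 and 35.6 CPM in null lines, against 65.9 and 57.2 CPM in WT lines. Every mutant and null line was below both WT lines (null over WT -1.14, SE 0.354, adjusted p = 0.171; mutant over WT -0.53, SE 0.316, adjusted p = 0.294). In the GENCODE models 26.6% of the exon bases of Rev1 lie under exons of Eif5b on the opposite strand, and whether counting used strand is not given. Poli, a polymerase related to Polh, averaged 15.5 ± 4.49 CPM in mutant lines and 16.5 ± 0.829 CPM in null lines, against 9.45 ± 1.65 CPM in WT lines, with every mutant and null line above both WT lines. Rev3l, the catalytic subunit of polymerase zeta, averaged 64.8 ± 14.8 CPM in mutant lines and 57.4 ± 18.0 CPM in null lines, against 49.1 ± 4.23 CPM in WT lines. Rad18, the ligase that recruits these polymerases, had log2 fold changes of 0.18 for mutant over WT and -0.46 for null over WT. Polq, which joins ends through short homologies, had 12.6, 9.02 and 9.80 CPM in mutant lines and 1.37 and 6.42 CPM in null lines, against 4.66 and 8.93 CPM in WT lines. Its range over the 7 lines was the widest of the set, 9.18-fold, and mutant lines were above all others by a margin that at its smallest was 9.02 against 8.93 CPM.

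The 39 genes thus differed widely in how far they varied: the highest line was under 2-fold above the lowest for 10 genes, 2 to 4-fold for 14, and 4-fold or more for 15. The lowest line was null 1 for 25 genes, and the highest was WT 2 for 19 and mutant 1 for 9. The ranges and the lowest and highest lines were not counted over all genes, so these counts cannot be read as particular to the 39. Lines of one group differed in the same direction over most of the set. WT 2 was above WT 1 for 35 of 39 genes (50.9% of all genes), with a median ratio of 1.44, and null 3 was above null 1 for 32 of 39 (50.1% of all genes), with a median ratio of 1.52. Proliferation genes, a list of 22 that includes Mki67, Top2a, the Mcm genes and mitotic kinases, went with these lines: WT 2 was above WT 1 for 21 of 22 and null 3 above null 1 for 22 of 22, with median ratios of 1.67 and 2.37. Mki67 had 186.5, 152.4 and 153.2 CPM in mutant lines and 14.6 and 98.0 CPM in null lines, against 99.8 and 225.3 CPM in WT lines. In bulk RNA, fewer cells expressing a gene and less RNA per cell cannot be told apart, and the part that cell cycling had in the levels of the 39 genes was not tested.

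By role, the median log2 ratio to the WT mean for recombination genes was 0.36, 0.14 and -0.25 in mutant 1, 2 and 3, -1.46 and -0.26 in null 1 and 3, and -0.49 and 0.36 in WT 1 and 2. For Fanconi genes it was -0.21, -0.52 and -0.67 in mutant 1, 2 and 3, -1.16 and -0.77 in null 1 and 3, and -0.35 and 0.28 in WT 1 and 2. Translesion genes stood at 0.64, 0.41 and 0.53 in the mutant lines and -0.997 and 0.32 in the null lines, against -0.09 and 0.09 in the WT lines, so that for this group the mutant lines were above all others. Checkpoint genes had the narrowest spread, from -0.57 to 0.16 over the 7 lines. Proliferation genes stood at 0.13, -0.18 and 0.07 in the mutant lines and -2.10 and -0.54 in the null lines, against -0.42 and 0.32 in the WT lines. With null 1 left out, null 3 was below both WT lines for 22 of 39 genes (40.3% of all genes), and the mutant lines were above null 3 for 23 of 39 (26.1% of all genes). The median log2 fold change for null over WT was -0.34 without null 1, -0.93 without null 3 and -0.21 without WT 2. Fibroblast markers, low in null 1 and high in null 3, moved with the same pair of lines, and their part in the result was not tested.

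**Figure D4:**
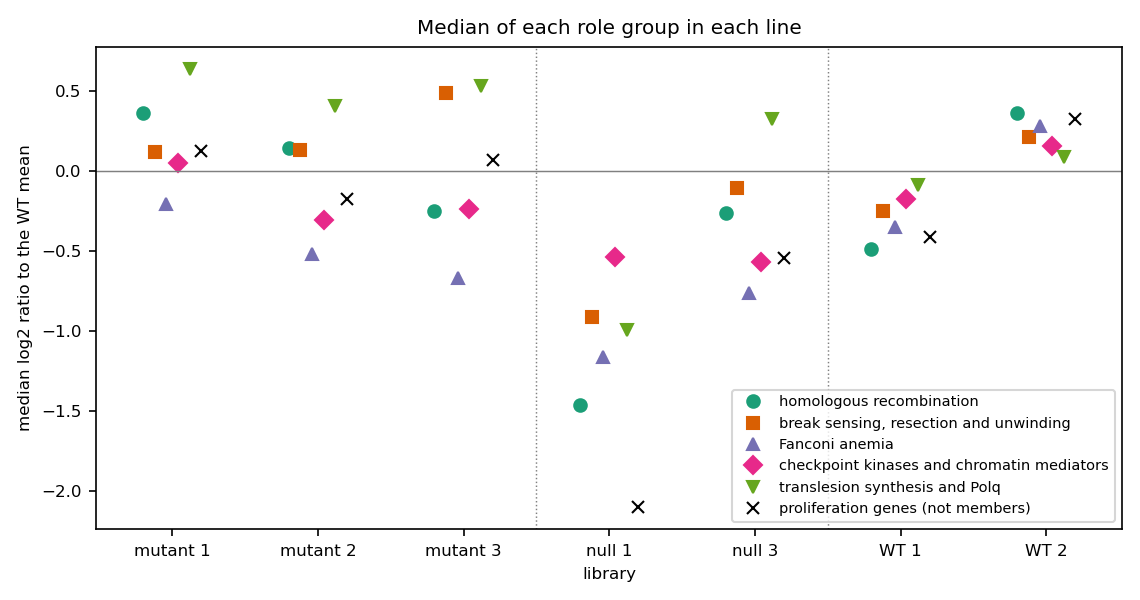
Median over each role group of the log2 ratio to the WT mean in each library, with 22 proliferation genes as crosses. Null 1 is lowest for recombination, break sensing, Fanconi and translesion genes and for the proliferation genes (-2.10), while translesion genes are 0.32 to 0.64 in the mutant lines and null 3 and 0.09 in WT 2.

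Promoter sequences were read for the 30 of the 39 genes that have a window in the RefSeq-based table (GRCm38.p6, 250 bases before to 50 after the start); Rad54b, Xrcc2, Nbn, Rad50, Exo1, Fancd2, H2afx, Poli and Rev3l have none there. Shown are the 4 genes with the widest range over the lines among those with a window, and Brca1, which had the smallest p for mutant over null. Each is written 5′ to 3′ on the strand of the gene, and capitals mark motifs of cell cycle promoters found on either strand: the E2F sites TTTCCCGC, TTTGGCGC, TTTCGCGC and TTTGCCGC, the CHR elements TTTGAA and TTCGAA, and the NF-Y box CCAAT.
Polq promoter (chr16:37011536-37011835, plus strand): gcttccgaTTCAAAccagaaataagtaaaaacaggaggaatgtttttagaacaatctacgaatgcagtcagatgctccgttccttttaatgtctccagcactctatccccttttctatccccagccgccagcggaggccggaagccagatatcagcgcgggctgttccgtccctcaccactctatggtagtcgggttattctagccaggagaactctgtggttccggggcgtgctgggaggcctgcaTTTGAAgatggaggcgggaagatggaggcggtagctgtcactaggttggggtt
Rad51ap1 promoter (chr6:126939538-126939837, minus strand): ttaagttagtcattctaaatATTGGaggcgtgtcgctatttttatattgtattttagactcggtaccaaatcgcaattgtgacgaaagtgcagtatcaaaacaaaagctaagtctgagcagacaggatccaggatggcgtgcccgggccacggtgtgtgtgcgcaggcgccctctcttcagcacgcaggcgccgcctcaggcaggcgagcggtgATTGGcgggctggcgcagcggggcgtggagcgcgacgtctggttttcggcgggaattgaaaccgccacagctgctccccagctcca
Fanci promoter (chr7:79392088-79392387, plus strand): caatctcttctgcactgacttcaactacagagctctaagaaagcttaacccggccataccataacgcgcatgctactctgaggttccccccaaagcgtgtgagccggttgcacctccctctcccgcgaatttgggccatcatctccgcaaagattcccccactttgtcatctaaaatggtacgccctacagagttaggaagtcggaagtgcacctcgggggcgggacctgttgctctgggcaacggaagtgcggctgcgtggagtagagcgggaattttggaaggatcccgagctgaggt
Bard1 promoter (chr1:71102923-71103222, minus strand): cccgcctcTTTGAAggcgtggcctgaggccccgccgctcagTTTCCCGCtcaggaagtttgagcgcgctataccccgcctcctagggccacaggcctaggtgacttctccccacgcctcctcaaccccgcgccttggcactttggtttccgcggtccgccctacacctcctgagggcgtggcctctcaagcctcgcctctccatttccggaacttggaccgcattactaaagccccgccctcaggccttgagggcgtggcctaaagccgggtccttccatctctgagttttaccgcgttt
Brca1 promoter (chr11:101551906-101552205, minus strand): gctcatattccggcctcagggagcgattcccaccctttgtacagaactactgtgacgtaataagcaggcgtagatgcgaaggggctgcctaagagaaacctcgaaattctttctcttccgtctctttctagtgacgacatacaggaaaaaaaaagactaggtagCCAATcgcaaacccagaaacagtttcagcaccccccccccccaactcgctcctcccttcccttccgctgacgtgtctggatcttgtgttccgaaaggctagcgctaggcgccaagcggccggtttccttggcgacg

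The Polq window holds CHR elements starting at -242 and -3 from the transcript start, Rad51ap1 holds CCAAT boxes at -230 and -36 and Brca1 holds a CCAAT box at -86. Bard1 holds an E2F site at -209 and a CHR element at -242, and Fanci holds none of these letters. Over the 30 genes, a CCAAT box was present for 18 (60.0%), against 37.4% of all 32851 windows in the table. A gene was counted if any of its windows matched (33 windows for the 30 genes), whereas the shares of all windows count each window singly. An E2F site was present for 5 (16.7%: Bard1, Brca2, Chek2, Fancg and Mdc1), against 2.26% of all windows. A CHR element was present for 3 (10.0%), against 19.2% of all windows, and a p53 half-site for 3 (10.0%: Brip1, Fanca and Fancg), against 8.36%. These are matches of letters in a short window and were not tested against the expression values.

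Ratios between partner genes within a library do not depend on scaling, and were computed for 8 pairs chosen after the values were seen. Brca1 over Bard1 was 1.69, 2.43 and 3.13 in mutant lines and 2.97 and 2.32 in null lines, against 1.38 and 1.44 in WT lines. All mutant and null lines were thus above both WT lines. Fancd2 over Fanci was 1.62, 1.37 and 1.35 in mutant lines and 1.77 and 1.93 in null lines, against 1.08 and 1.34 in WT lines; mutant 3 and WT 2 nearly met. Rev3l over Mad2l2, the subunits of polymerase zeta, was 4.60, 3.42 and 3.63 in mutant lines and 2.80 and 5.44 in null lines, against 5.79 and 8.43 in WT lines, and was lower in every mutant and null line. Chek1 over Atr was 0.581, 0.463 and 0.736 in mutant lines and 0.119 and 0.206 in null lines, against 0.190 and 0.223 in WT lines, so the mutant lines stood apart from both other groups. Rad50 over Mre11a overlapped between mutant lines (1.13, 1.58 and 1.07) and WT lines (1.54 and 1.53), with null lines at 1.20 and 1.30. Brca2 over Palb2 overlapped between all groups. Nbn over Mre11a overlapped between mutant and WT lines, and was 0.930 and 0.842 in null lines, against 0.781 and 0.604 in WT lines. Chek2 over Atm was lower in every mutant and null line than in both WT lines. How often other gene pairs separate the groups was not computed, and no test was run on these ratios.

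**Figure D5:**
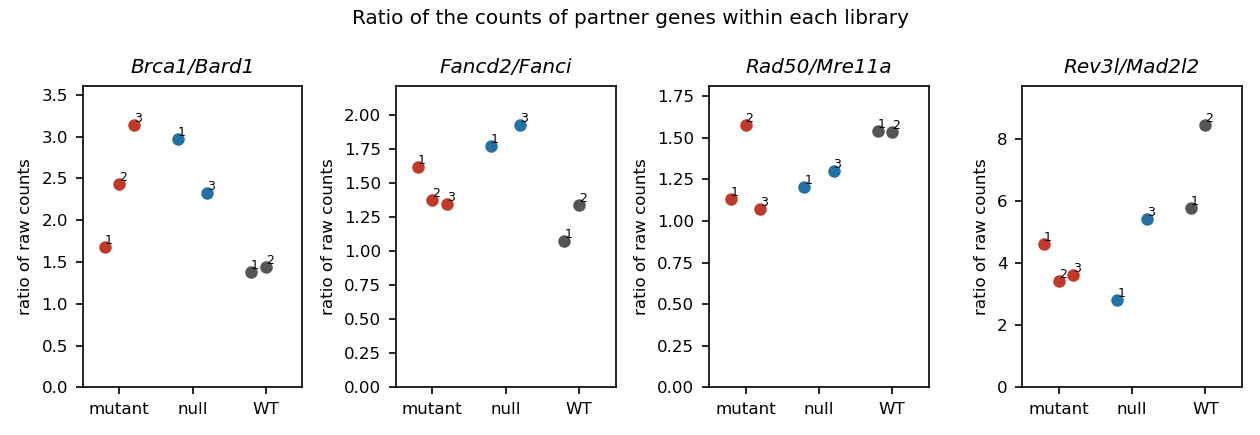
Ratio of raw counts for 4 pairs of partner genes in each line (points, numbered by replicate) in mutant, null and WT lines. Brca1 over Bard1 is 1.69 to 3.13 in mutant and null lines, against 1.38 and 1.44 in WT lines.

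Levels between genes were compared as CPM per kilobase of exon, using GENCODE M21 models, which may differ from those used for counting. Exon bases were merged over all annotated transcripts of a gene, not taken from the transcript expressed. They came to 23629 for Atr, 8359 for Fancc and 7706 for Rad54l. The order of the genes depends on these lengths. H2afx was highest, at 23.4 ± 5.43 in mutant lines and 18.2 ± 1.71 in null lines, against 32.4 ± 3.34 CPM per kilobase in WT lines. Nbn was at 19.7 ± 4.97 in mutant lines and 14.5 ± 0.0291 CPM per kilobase in null lines. Rad50, Nbn, Chek2 and Mdc1 followed H2afx in WT lines, at 16.6 ± 3.67, 15.6 ± 0.672, 10.5 ± 1.68 and 10.0 ± 1.83 CPM per kilobase, and Rad50 and Nbn, like Chek2 and Mdc1, did not differ beyond their spread. Polq and Rad54l were lowest in null and WT lines, and Rad54l and Fancc in mutant lines, where Fancc averaged 0.746 CPM per kilobase. Polq averaged 1.08 ± 0.193 in mutant lines and 0.402 ± 0.368 in null lines, against 0.702 ± 0.312 CPM per kilobase in WT lines, and Rad54l averaged 0.591 ± 0.179 in mutant lines and 0.232 ± 0.0827 in null lines, against 0.804 ± 0.382 CPM per kilobase in WT lines. In these models 11 of the 39 genes have at least 5% of their exon bases under an exon on the opposite strand. Besides Rev1, they include Fancc (16.4%, Gm16133), Fanci (16.0%, Polg), Rad54l (15.4%, Lrrc41), Trp53bp1 (15.0%, Tubgcp4), Fancf (15.0%, Gas2) and Fancl (13.7%, Vrk2).

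Other genes of these pathways were read from lists of known members. Of 36 further recombination and crosslink repair genes, 1 (2.78%, against 7.42% of all genes) fell and none rose in mutant lines against WT in edgeR. limma-voom called the same gene, and DESeq2 called 2 higher (Helq and Rpa2; 12.5% of all genes) and 3 lower (Slx1b, Ercc1 and Polk; 10.8% of all genes). The gene called in edgeR was Polk, a translesion polymerase, with 28.2, 25.8 and 25.6 CPM in mutant lines and 24.0 and 29.7 CPM in null lines, against 67.5 and 62.0 CPM in WT lines. Every mutant and null line was below both WT lines (mutant over WT -1.29, SE 0.170, adjusted p = 0.0212; null over WT -1.27, SE 0.192, adjusted p = 0.0735). The Polk call was lost without WT 1, WT 2, mutant 2 or mutant 3 (adjusted p = 0.117, 0.163, 0.0657 and 0.0746). None of the 36 passed in edgeR or limma-voom for null against WT or mutant against null. For null against WT, 4 were lower at an unadjusted p under 0.05 (9.01% of all genes) and DESeq2 called 3 lower (4.70% of all genes). For mutant against null, 6 were higher at that p (6.35% of all genes) and DESeq2 called 3 higher (1.55% of all genes). The genes with the smallest p there were Ercc1, part of the endonuclease that unhooks crosslinks (null over WT -1.26, SE 0.176, adjusted p = 0.0674), and Rpa1, the large subunit of the single-strand binding protein RPA (mutant over null 0.78, SE 0.185, adjusted p = 0.272).

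None of 24 further checkpoint genes and none of 12 end-joining genes passed in edgeR or limma-voom in any comparison. For mutant against WT at an unadjusted p under 0.05, 5 checkpoint genes were higher (15.9% of all genes), and 1 checkpoint gene and 4 end-joining genes were lower (14.6% of all genes). DESeq2 called 2 of the 24 higher (12.5% of all genes), and 1 of the 24 and 4 of the 12 lower (10.8% of all genes). For null against WT at that p, 3 checkpoint genes were higher (11.2% of all genes), and 3 checkpoint and 4 end-joining genes were lower (9.01% of all genes). DESeq2 called Fam175a higher (6.55% of all genes) and Parp1 lower (4.70% of all genes). For mutant against null, 3 checkpoint genes were higher at that p (6.35% of all genes) and DESeq2 called Clspn higher (1.55% of all genes), while no end-joining gene passed either. Clspn, which helps ATR activate CHEK1, had 45.8, 33.3 and 36.0 CPM in mutant lines and 5.20 and 17.0 CPM in null lines, against 6.16 and 14.3 CPM in WT lines. Mutant lines were above all others, as for Brca1 and Exo1 (mutant over WT 1.92, SE 0.594, adjusted p = 0.0911). Rad17, which loads a checkpoint clamp, had a log2 fold change of 0.55 for mutant over WT (SE 0.172, adjusted p = 0.0934). The end-joining polymerase gene Polm and the break sensor gene Parp1 had -1.05 (SE 0.273, adjusted p = 0.0628) and -0.75 (SE 0.200, adjusted p = 0.0670) for mutant over WT. For null over WT they had -0.85 (adjusted p = 0.206) and -0.85 (adjusted p = 0.138). The checkpoint genes with the smallest p for null over WT were Fam175a, a subunit of a BRCA1 complex, at 0.79 (adjusted p = 0.155), and Hus1, part of the checkpoint clamp, at -0.60 (adjusted p = 0.192). For mutant over null, Clspn had 1.79 (adjusted p = 0.299) and the break-site ubiquitin ligase gene Rnf168 had 0.52 (adjusted p = 0.299), while the end-joining genes Lig4 and Prkdc had -0.22 and -0.33 (adjusted p = 0.594 and 0.632).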

How the data were processed

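Libraries were made from poly-A RNA with a stranded kit, per the labels' protocols. The authors deposited unnormalized counts for each gene name and cell line. The submitters' processing notes name STAR 2.5.1b and the build mm9; how reads were assigned to genes, with which annotation and strand setting, is not given in the sources used here. The 92 spike-in names, with 0 counts, were left out. No pair of replicates agreed within sampling noise (chi-square over degrees of freedom 53.0 to 240).

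Counts were fitted in R 4.3.3 with edgeR 4.0.16 (quasi-likelihood F test, TMM, filterByExpr by group, all 7 libraries in 1 fit, Benjamini-Hochberg adjustment over 13768 genes, threshold 0.05). The standard error is the fold change over the square root of F. The fit was tested on simulated counts. DESeq2 1.42.0, limma-voom (limma 3.58.1), other scalings and filters, a block for replicate number and fits without 1 library were alternatives. The 39 genes and all lists were chosen with earlier results of these data known, and the partner pairs after their values were seen. Values per line are given for called genes, for the 5 smallest p per comparison, and for up to 8 genes with groups that do not overlap and a log2 fold change of at least 1 in size. Of other lists, called genes or those with the smallest p are named; Mki67 and the marker genes serve as checks.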

Additional observations from a re-analysis of the deposited data

Results flagged for a closer look

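Nbn was picked out because every mutant line was above, and every null line below, both WT lines, which are opposite directions under the same reference. It had 42.0, 43.2 and 64.4 CPM in mutant lines and 36.6 and 36.7 CPM in null lines, against 38.3 and 40.7 CPM in WT lines. The log2 fold change was 0.34 for mutant over WT (SE 0.229, adjusted p = 0.349) and -0.11 for null over WT (SE 0.249, adjusted p = 0.836). For mutant over null it was 0.44 (SE 0.229, unadjusted p = 0.0966, adjusted p = 0.419). Nbn was picked by the order of these same lines, so the last p is not separate support. How many of all genes meet this rule was not computed. Groups of 2 or 3 lines are too small for a search for single outlying lines.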

How the results depend on the processing

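The number of the 39 genes called for mutant against WT (1) became 3 with DESeq2, 2 with only the compared groups, and 0 with limma-voom, no filter or a replicate block; leaving out 1 line gave 0 to 2. For null against WT (0) it was 4 with DESeq2, and for mutant against null (0) it was 1. Over all genes, mutant against WT (1022) had 3198 with DESeq2, 0 with the block and 0 to 1420 on leaving out 1 line. Null against WT (19) had 1549 with DESeq2, 0 with limma-voom or the block, 55 with the newer quasi-likelihood fit, 77 without a filter, and 0 to 55 on leaving out 1 line. Mutant against null (0) had 604 with DESeq2, 1 with RLE or upper-quartile factors, the newer fit or a filter of 5 CPM in 2 libraries, 2 without a filter, and 0 to 22 on leaving out 1 line. The median log2 fold change of the 39 genes ran from -0.21 to 0.38 for mutant against WT, and from -0.93 to -0.21 for null against WT. For mutant against WT it was above 0 without WT 2 (0.38), and slightly above 0 with limma-voom (0.12) and the replicate block (0.00). Counts of genes whose lines do not overlap were recomputed without each line as an alternative chosen after seeing the data; for null against WT, 8 genes were higher without null 1, against 5. The cause of these changes was not tested. Deviations of same-numbered lines from their group means had correlations of -0.405 to 0.138. In a group of 2 lines the deviations mirror each other, so these values cannot settle whether lines are paired. The replicate numbers are not said to pair lines and were not taken as pairs.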
